A study of Mus musculus with 8 samples.

Results

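Growth factors that signal through receptor tyrosine kinases, their receptors, and the genes that answer to or restrain the MAPK cascade were examined in a murine spleen stromal cell line. The set was given by name as 59 genes of the FGF, PDGF, VEGF, EGF, HGF, GAS6 and neurotrophic factor families, with the DUSP, Sprouty and Spred feedback genes, 3 ETS factors and 8 early-response genes. Of these, 56 had a row among the 12589 rows of the deposited RNA-seq table. Fgf2, Fgf21 and Gdnf had none, and no value is given for them. The cells were the line mSSC-YFP, an immortalized stromal line from mouse spleen that carries yellow fluorescent protein and was grown in medium with fetal bovine serum. The labels list 4 samples treated for 48 h with BMS493, an inverse agonist of the retinoic acid receptors, and 4 treated for 48 h with its vehicle DMSO. All 8 come from the same line, so it stands as a single model of spleen stroma, and nothing in the labels says whether the samples of a group were separate cultures.

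The value analysed for each gene is the authors' mean log2 normalized expression over all samples, DMSO and BMS493 together, on a scale close to CPM. Values of single samples were not analysed here. The spread between samples and the depth of each library are therefore unknown, no value below carries an error from replicates, and BMS493 was not compared with DMSO. For a gene that differs between the treatments, the mean lies between the levels of the 2 groups. Each level is also an average over all cells, so that few cells with much RNA and many cells with little cannot be told apart. Because a longer transcript gives more reads, genes were compared by their level per kilobase, which is the log2 mean minus log2 of the length in kilobases of the longest annotated transcript. Behind each such value stands a range over 3 definitions of length (longest transcript, all exons summed, and the median protein-coding transcript), which shows how far the gene model moves it.

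Receptor tyrosine kinases sit in the cell membrane and pair up when a ligand binds them. The active receptor recruits adaptors and turns on RAS and the kinases RAF, MEK and ERK, after which early-response genes such as Fos and Egr1 are transcribed within minutes. Feedback genes are transcribed as well. DUSP phosphatases remove phosphate from MAP kinases, while Sprouty and Spred proteins act on the pathway further upstream. In stroma these ligands serve growth, blood vessel supply and the exchange of signals with neighbouring cells.

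The cells carried transcripts typical of fibroblast-like stroma. All 9 stromal markers had a row, and 8 of them lay above the median level per kilobase of all genes. Before division by length, the log2 means were 13.29 for Col1a1, 12.47 for Col1a2, 9.87 for Col3a1, 11.78 for Vim, 7.72 for Thy1, 8.03 for Vcam1 and 9.18 for S100a4. Pdgfra and Pdgfrb, the other markers, are members and are described below. The haematopoietic markers Ptprc, Cd79a, Cd79b, Cd3e, Itgam, Adgre1 and Hba-a1 had no row under these symbols. On the same scale, of 5 endothelial markers only Pecam1, at 0.47, and the member Kdr, at 2.83, had one, without Cdh5, Tie1 or Tek. Cdh1, the epithelial cadherin, stood at 8.03 and, per kilobase, above 90.7% of all genes, whereas the keratin genes Krt8 and Krt18 were at 1.55 and 0.31 and Epcam had no row. The part of cells of another kind in the members' levels was not tested.

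Several early-response and feedback genes are textbook targets of factors that MAP kinases and related kinases switch on. Serum response factor binds the CArG box, and CREB binds TGACGTCA or its shorter form TGACG, which that longer motif contains. Motifs were searched on both strands in the 250 bases before each start in the RefSeq promoter table (GRCm38.p6), which held 63 such windows for 46 members. The windows below are shown because they hold these elements, each written 5′ to 3′ on the strand of its gene, with capitals for TGACG and TATAAA in Fos, the CArG box in Egr2 and Dusp5, and TGACGTCA in Dusp1.

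Fos (chr12:85473640-85473889, plus strand): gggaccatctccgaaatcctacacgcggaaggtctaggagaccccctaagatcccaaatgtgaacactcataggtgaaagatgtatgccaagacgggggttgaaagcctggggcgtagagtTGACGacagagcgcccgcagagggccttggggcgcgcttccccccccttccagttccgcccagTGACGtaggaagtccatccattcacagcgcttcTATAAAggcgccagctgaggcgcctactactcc
Egr2 (chr10:67537316-67537565, plus strand): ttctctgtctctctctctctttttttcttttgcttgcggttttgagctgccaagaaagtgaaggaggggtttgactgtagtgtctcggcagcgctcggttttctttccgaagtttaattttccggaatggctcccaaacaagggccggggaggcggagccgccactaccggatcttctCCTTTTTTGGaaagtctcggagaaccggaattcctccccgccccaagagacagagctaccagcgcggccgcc
Dusp1 (chr17:26508520-26508722, minus strand): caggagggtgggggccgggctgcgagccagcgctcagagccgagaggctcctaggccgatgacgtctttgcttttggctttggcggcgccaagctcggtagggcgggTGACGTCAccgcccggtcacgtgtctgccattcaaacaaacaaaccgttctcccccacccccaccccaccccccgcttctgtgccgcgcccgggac
Dusp5 (chr19:53529058-53529087, plus strand): aatacCCATATTTGGCCTTATATGGgcact

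In the Fos window, TGACG begins 129 and 66 bases before the start and the TATA element TATAAA 33 bases before it. For Egr2 the stretch precedes an internal start and contains no annotated exon, and its CArG box begins 72 bases upstream. That of Dusp1 is cut where an annotated exon begins, and its TGACGTCA lies 143 bases upstream. Of Dusp5 only 30 bases are shown because annotated exons cover the window, with 2 CArG boxes side by side, 82 and 72 bases before the start. Among all 32851 windows of the same length, 1.47% held a CArG box, 1.55% TGACGTCA and 17.77% TGACG. Among the 46 members with a window the CArG box was found for Egr2, Dusp5 and Pdgfc, and TGACGTCA for Dusp1, Areg and Flt1. Only 6 of the 8 early-response genes had a window. Egr1 and Fosl1 had none and were not searched, and neither were bases further upstream than 250 for any gene. Of 10 early-response windows, 5 held TGACG, but 3 of these were overlapping windows of Egr2. A direct repeat of AGGTCA with 5 bases between, a form of the element bound by retinoic acid receptors, was in 3 of all windows and in 0 of the members'. With this exact repeat so rare everywhere, its absence from the members' windows says nothing about them. These matches describe the letters only, and binding was not measured.

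By their median, the early-response genes were higher than the ligands, the receptors and the feedback genes. Of 8 early-response genes 7 lay above the median of all genes, and their median level per kilobase was 5.52, against 3.28 for all 12374 genes with a length. The median early-response gene lay above 87.6% of these genes. Ier3, which encodes a small early-response protein tied to cell survival, was the highest of them at 6.62 per kilobase, above 95.0% of all genes. Egr1, a zinc finger factor on chromosome 18 (34859823 to 34864984 on GRCm38), followed at 6.05, a range of 6.05 to 6.30 over the length definitions. Egr2, its close relative, was the exception at 1.50. Egr1 thus exceeded Egr2 23.3 times per kilobase (8.47 to 26.8 times over the 3 length definitions).

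AP-1 pairs a FOS with a JUN protein on DNA. Of the members that encode its subunits, Junb, Fos, Fosl2 and Jun were close to each other. Junb stood at 5.93 per kilobase, Fos at 5.54, Fosl2 at 5.49 and Jun at 5.37. Fos and Fosl2 differed by 0.05 on the log2 scale, a smaller step than the 0.57 that the definition of length moved Fosl2 alone. Fosl1, another FOS relative, was lower at 4.00, so that Fos exceeded it 2.91 times per kilobase (1.74 to 2.91).

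**Figure D1:**
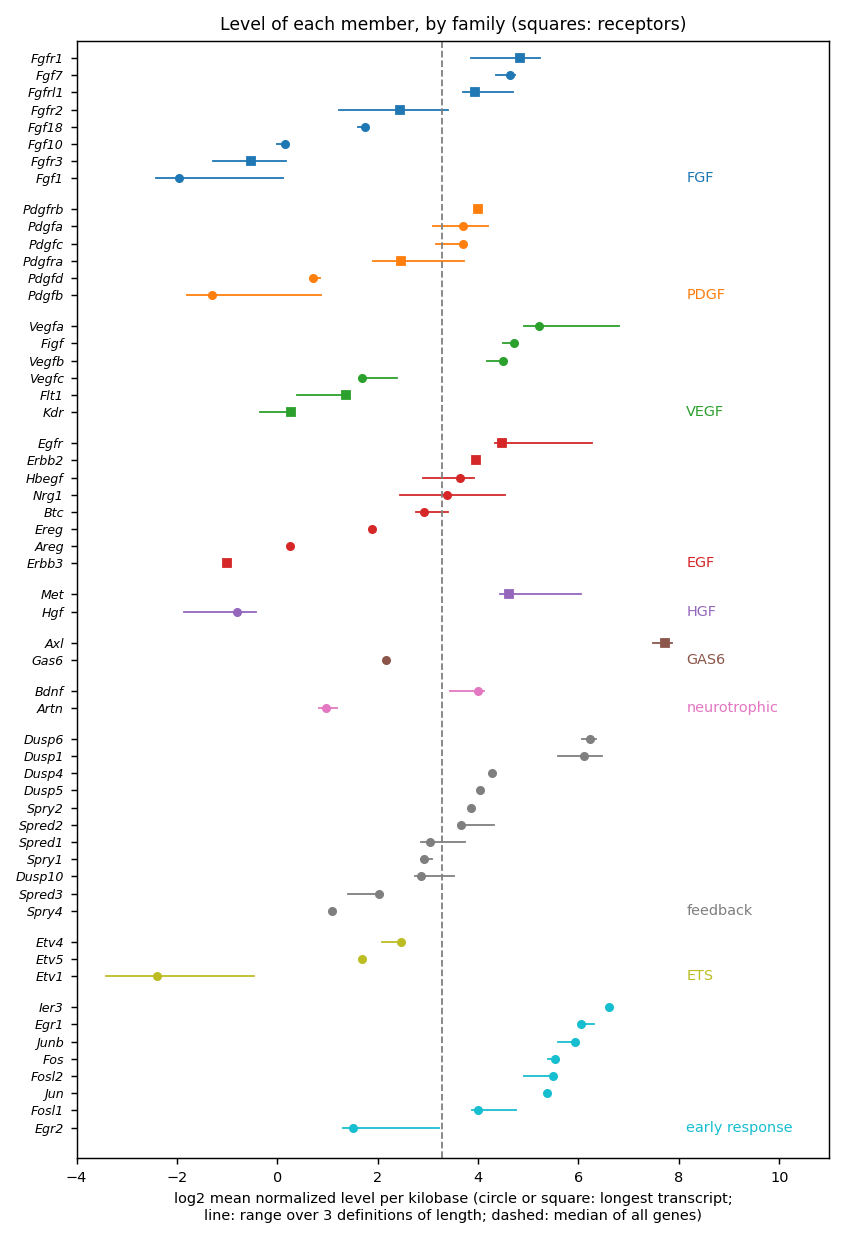
Each row is a member with a deposited value, grouped by family, and the horizontal axis is its log2 mean normalized level per kilobase over all samples. Circles mark ligands, feedback genes and transcription factors and squares mark receptors, both by the longest transcript, with lines for the range over 3 definitions of length and a dashed line at the median of all genes, 3.28. The early-response genes other than Egr2 lie to the right of that line, and Axl is the highest point at 7.73.

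Feedback genes were spread more widely, and the phosphatases led them. All 11 had a row, 6 lay above the median of all genes per kilobase, and their own median was 3.67. Dusp6, which acts on ERK in the cytoplasm and lies on chromosome 10 (99263231 to 99267489), was at 6.24 per kilobase, and the nuclear phosphatase gene Dusp1 was at 6.11. The order of these genes depended on the length used, since Dusp6 minus Dusp1 ran from -0.11 to 0.48 on the log2 scale. Dusp4 and Dusp5, both nuclear phosphatase genes, stood at 4.28 and 4.04. Dusp10, whose product prefers the stress kinases p38 and JNK, was the lowest phosphatase at 2.86. Per kilobase, Dusp6 exceeded Dusp10 10.4 times (7.10 to 10.4).

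By their medians, Sprouty genes, at 2.92 per kilobase, and Spred genes, at 3.04, were lower than the phosphatases, at 4.28, although 4 of these 6 genes lay above Dusp10. Spry2 was the highest Sprouty at 3.87 per kilobase, followed by Spry1 at 2.92 and Spry4 at 1.09. With a single length for both, Spry2 exceeded Spry4 6.85 times under every definition. Of the Spred genes, whose products bind RAF and the RAS regulator neurofibromin, Spred2 was at 3.67, Spred1 at 3.04 and Spred3 at 2.02. Thus 4 of 5 phosphatases, 1 of 3 Sprouty genes and 1 of 3 Spred genes lay above the median of all genes.

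The PEA3 group of ETS factors, which ERK signaling induces downstream of FGF receptors in many tissues, was low throughout. Etv4 stood at 2.46 per kilobase, Etv5 at 1.70 and Etv1 at -2.39, so that 0 of 3 lay above the median of all genes. Etv1 was the lowest of all 56 members with the longest transcript, above 0.339% of all genes, although its range over the length definitions was wide (-3.40 to -0.45). Before division by length Fgf1 and Pdgfb, at 0.04 and 0.26, were lower than Etv1, at 0.33.

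By their median, receptors were higher than ligands. The 13 receptors had a median of 3.95 per kilobase and 7 lay above the median of all genes, while the 21 ligands with a row had a median of 2.16 and 9 lay above it. Over the 3 length definitions the medians were 3.69 to 3.96 for receptors and 2.16 to 2.39 for ligands. In all, 29 of 56 members were above the median of all genes per kilobase, and 27 by the level before division by length.

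**Figure D2:**
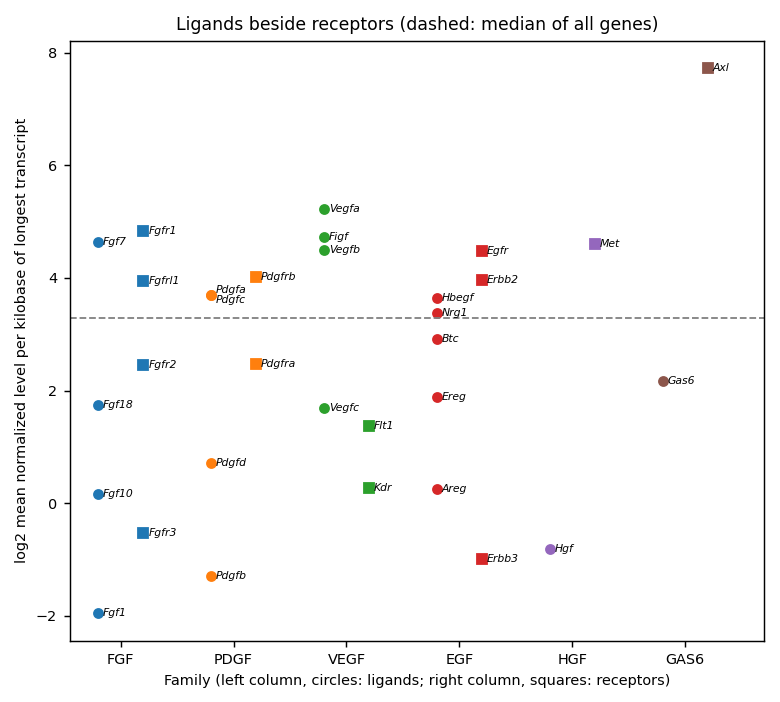
The vertical axis is the log2 mean normalized level per kilobase of the longest transcript, and for each family the left column of circles shows ligands and the right column of squares shows receptors. The dashed line is the median of all genes. Axl lies far above its ligand Gas6 and Met far above Hgf, whereas Vegfa, Figf, Vegfb and Vegfc lie above Flt1 and Kdr. The receptor gene Flt4 is not a member and is not shown. At 3.25, it was above Flt1, Kdr and Vegfc.

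In the GAS6 and HGF families a high receptor stood beside a low ligand. AXL is a receptor of the TAM group that binds the vitamin K-dependent protein GAS6. Its gene Axl (chromosome 7, 25757273 to 25788705) was the highest of all members, at 7.73 per kilobase and above 98.3% of all genes, while Gas6 was at 2.16. Axl exceeded Gas6 47.4 times per kilobase (40.2 to 51.9). MET is the receptor of hepatocyte growth factor. Met (chromosome 6, 17463800 to 17573980) was at 4.61 per kilobase and Hgf at -0.81, a step of 42.7 times (42.7 to 88.2). Hgf exceeded 4.12% of all genes per kilobase. Before division by length the log2 means of Hgf, Erbb3 and Areg were low, at 0.99, 1.60 and 0.54, where the lowest row was at -0.58. The large ratios to these genes, here and below, rest on such low values, and the ranges in brackets cover the length only.

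Of the FGF receptors, Fgfr1 was the main transcript. Fgfr1 was at 4.83 per kilobase, the decoy-like receptor gene Fgfrl1, which lacks the kinase domain, at 3.95, Fgfr2 at 2.45 and Fgfr3 at -0.52. Fgfr1 exceeded Fgfr2 5.21 times (3.59 to 6.20). Among the ligands, Fgf7 stood apart. This paracrine factor of mesenchymal cells, which acts on epithelia through the IIIb form of FGFR2, was at 4.63 per kilobase on chromosome 2 (126034658 to 126091185). Fgf18, a ligand known from bone and cartilage, was at 1.74, Fgf10, the nearest relative of Fgf7, at 0.16 and Fgf1, which can bind all FGF receptors, at -1.95. Fgf7 exceeded Fgf10 22.2 times (20.4 to 23.9), whereas between Fgfr1 and Fgf7 the sign of the difference changed with the length used (-0.50 to 0.50 on the log2 scale). Which splice forms of the receptors were present cannot be read from gene totals.

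Both PDGF receptors were present, with more Pdgfrb than Pdgfra. Pdgfrb, the receptor of pericytes and many fibroblasts, was at 4.01 per kilobase and Pdgfra at 2.47. The ratio of 2.91 depended on the length and ran from 1.23 to 4.22. Pdgfa and Pdgfc, whose products bind PDGFRA, were at 3.70 and 3.69. Pdgfd, whose product binds PDGFRB, was at 0.72 and Pdgfb, which serves both receptors, at -1.30. Per kilobase, Pdgfa exceeded Pdgfd 7.88 times (5.24 to 10.2).

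In the VEGF family 3 of the 4 ligands lay above the median of all genes per kilobase, and the receptor genes Flt1 and Kdr lay below it. Vegfa, the main factor of vessel growth, was at 5.22 per kilobase (chromosome 17, 46016993 to 46032369). Figf, the older name of Vegfd, was at 4.72 and Vegfb at 4.50, while Vegfc, the ligand of lymphatic vessels, was at 1.69. The receptor gene Flt1 was at 1.37 and Kdr at 0.27, so that Vegfa exceeded Flt1 14.5 times (14.5 to 41.8). Flt4, the receptor gene of the lymphatic ligands and not itself a member, was higher at 3.25, near the median of all genes. It lay above Vegfc but below Figf. Flt1 and Kdr are known chiefly from endothelium, of which the marker Pecam1 was at -1.31 per kilobase and Cdh5, Tie1 and Tek had no row.

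EGF receptors were uneven. Egfr was at 4.48 per kilobase and Erbb2, a co-receptor with no ligand of its own, at 3.96. Erbb3, a neuregulin receptor with weak kinase activity of its own, was at -0.99, which Egfr exceeded 44.4 times (40.0 to 154). The ligands Hbegf at 3.65, Nrg1 at 3.38 and Btc at 2.92 were close to each other, and the order of Hbegf and Nrg1 turned with the length used (-0.60 to 0.46 on the log2 scale). Ereg was at 1.88 and Areg at 0.26, so that Hbegf exceeded Areg 10.5 times (6.27 to 12.8). Of the neurotrophic factors, Bdnf was at 3.99 and Artn, a ligand of the RET receptor complex, at 0.97.

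Set side by side, the early-response genes, at a median of 5.52 per kilobase, stood above the families that start the signal. The medians were 3.15 for EGF, 3.09 for VEGF, 3.08 for PDGF, 2.48 for the neurotrophic factors, 2.09 for FGF and 1.90 for HGF. The pair of Axl and Gas6 had 4.94. Feedback genes, at 3.67, lay between this pair and the EGF family, and the ETS factors, at 1.70, were below all of these with the longest transcript but above FGF and HGF with all exons summed. These values describe genes, which are not replicates, and no test was run on them.

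The order of single members was only as firm as the length allowed. Of 55 neighbouring pairs in the order of the 56 members, 44 had ranges over the 3 definitions that overlapped. Of all 1540 pairs 90.8% kept their order under each definition, and 8 members were among the 10 highest under each.

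**Figure D3:**
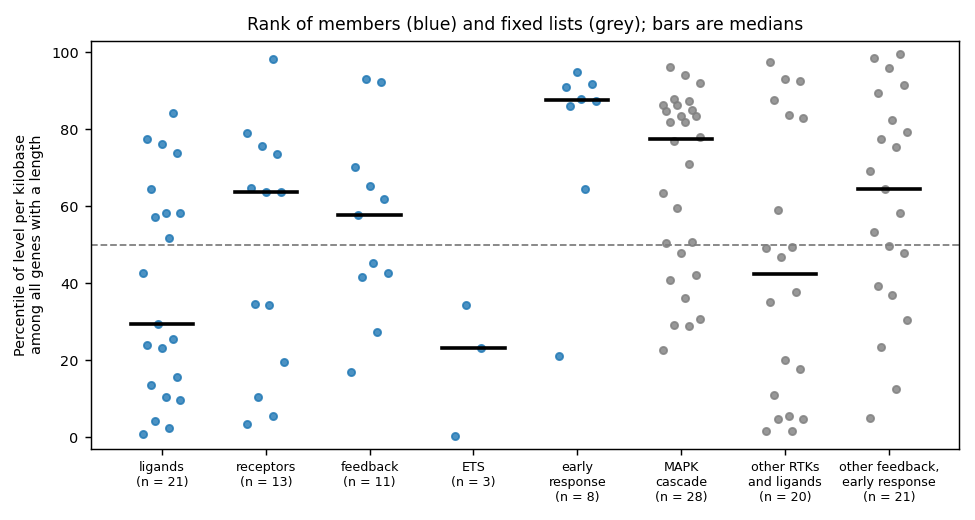
Each point is a gene, and the vertical axis is the percentage of all genes with a length that have a lower level per kilobase. Members are blue, genes of 3 further lists of the pathway are grey, bars are medians and the dashed line marks 50. The early-response group has its median at 87.6 and the ligands at 29.4.

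Most genes listed for the cascade, which include nuclear factors such as Srf and Myc, lay above the median of all genes. Of 29 genes listed for the cascade 28 had a row, with none under the symbol Hras, and 20 lay above the median of all genes per kilobase. Their median was 4.72. The highest were Mapk3, which encodes ERK1, above 96.2% of all genes, and Myc, above 94.1%. The lowest were the scaffold gene Ksr1, which exceeded 22.6%, and Sos2, which exceeded 28.9%. Srf, the factor of the CArG box, exceeded 86.4%. Of 22 other feedback and early-response genes, 21 had a row and 13 lay above the median of all genes. Cyr61 and Ctgf, matricellular genes induced by serum, exceeded 99.4% and 98.5%, while Spry3 and Egr3 exceeded 4.85% and 12.6%.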

How the data were processed

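RNA-seq libraries of 8 samples of the stromal line mSSC-YFP, 4 with DMSO and 4 with BMS493, were analysed. According to the paper's methods and the submitters' processing notes, the authors read stranded mRNA libraries from a single end, aligned them to mm10 (GRCm38) with STAR 2.3.0e, took counts of uniquely mapped reads per Ensembl gene from Rsubread, normalized by a weighted trimmed mean of M-values and used limma for testing. The authors deposited 1 table with decimal commas. Its mean log2 normalized expression over all samples was used. Its log2 values ran from -0.58 to 13.29, and 2 raised to them summed to 989369. Whether a count was added before logs is not given in the sources used here. The other 4 columns hold the authors' comparison of BMS493 with DMSO (log2 fold change, t, p-value, adjusted p-value) and were not used. The paper gives only an average number of clusters per sample. The depth of each single sample and the spread between samples are unknown.

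Gene models were taken from GENCODE M21 (GRCm38), 11771 by symbol and 603 through 1 older symbol (such as Figf for Vegfd), which gave a length for 98.3% of rows. Percentiles are shares of genes with a lower value. The arithmetic of the level per kilobase was checked on simulated data with known lengths. That check cannot show whether the annotated lengths suit these cells. All members and lists were chosen with earlier results of these data known. Every member was named, and of each further list the 2 highest and 2 lowest genes per kilobase. Srf, Flt4 and genes of the lists without a row were named in addition, after their values were seen. Sequences are from RefSeq. The design foresaw limma on values of single samples, which was not run. Python 3.11.15 and matplotlib 3.10.9 were used.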

Additional observations from a re-analysis of the deposited data

How the results depend on the processing

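No paired analysis was possible because the values used are means over all samples. For the same reason leaving out each sample was not run. The number of members above the median of all genes per kilobase was 30 with all exons summed, 25 with the median protein-coding transcript and 28 among genes with a mean log2 level of at least 1, against 29. By the level before division by length it was 27 in all 3 settings. Older and newer symbols found no further member, and 56 had a row. Markers and genes of the further lists were looked up under the listed symbol only. A missing row among them can therefore also mean another name.

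With all exons summed the family medians per kilobase were 1.42 for FGF, 2.51 for PDGF, 2.93 for VEGF, 2.60 for EGF, 1.29 for HGF, 4.83 for GAS6, 2.14 for the neurotrophic factors, 3.61 for feedback, 1.65 for ETS and 5.38 for early response. With the median protein-coding transcript they were 2.60 for FGF, 3.71 for PDGF, 3.48 for VEGF, 3.67 for EGF, 2.82 for HGF, 5.01 for GAS6, 2.65 for the neurotrophic factors, 3.87 for feedback, 1.77 for ETS and 5.52 for early response. The definition of length moved the median of all genes by -0.43 and 0.70. Relative to it, feedback genes were higher by 0.38 with the longest transcript and by 0.76 with all exons, but stood at -0.11 with the median protein-coding transcript, and VEGF stood at -0.19, 0.08 and -0.50. Early response, GAS6 and feedback were the 3 highest families in that order under all 3 definitions. The order of the other 7 changed. GAS6 here holds only Axl and Gas6, at 7.73 and 2.16 with the longest transcript, so its place rests on Axl.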

Other observations

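Of 39 other receptor tyrosine kinases and ligands, 20 had a row and 7 of these lay above the median of all genes per kilobase. Csf1, the macrophage growth factor, exceeded 97.4% of all genes and Ryk, a Wnt-binding receptor, 93.0%, whereas Egf and Mst1r exceeded 1.45% and 1.49%. No row was found for Csf1r, Kit, Pgf or Fgfr4.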
